A study of Mus musculus with 8 samples.

Results

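Among 8 arrays of mouse neurospheres, 5 had a low signal for Cbx3, the gene of the chromatin protein HP1gamma, and these 5 separated into 2 and 3 arrays by the signal of the immediate early gene Nr4a1. Both sides were selected on measured values. An array counted as Cbx3-low where its main Cbx3 probe lay under the array's own 75th percentile. Among those 5, the pair with an Nr4a1 signal under 6 is called the low pair here, and the 3 arrays over 6 are called the high trio. All signals are log2 processed intensities minus the array's 75th percentile, called relative signal below. The low pair consisted of the arrays labelled WT floating 2 and KO floating 2. The high trio consisted of the arrays labelled KO floating 1, KO floating 3 and KO adherent 1. The 3 remaining arrays, labelled WT floating 1, WT floating 3 and KO adherent 2, had a high Cbx3 signal and are set beside the others.

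Per the labels, each sample was grown from 1 embryonic mouse brain at stage E14.5, and the stem cells came from the ganglionic eminence of the telencephalon. The labels describe HP1gamma knockout (-/-, KO here) and wild-type (+/+, WT here) neurospheres. They give no strain, no sex, and no further detail of the knockout allele. The protocol names ultra-low attachment plates, 7 days of culture, 20 ng/ml EGF and 20 ng/ml bFGF, with fresh medium added every 3 days. It describes the same culture for all samples, and it does not say how the adherent samples were kept. Neurospheres are free-floating clusters of neural stem and progenitor cells that multiply in response to these 2 growth factors.

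Cbx3 and Nr4a1 made the split and are given only as its description. They were left out of the gene lists and the named genes, but the counts over all features still include Nr4a1. The relative signal of Cbx3 was -2.17 on the array labelled WT floating 2 and -2.76 on the array labelled KO floating 2. It was -1.86, -1.75 and -2.03 on the high trio and 5.83, 5.95 and 5.91 on the Cbx3-high arrays. So the Cbx3 signal goes against the label of 2 arrays: the array labelled WT floating 2 was low, and the array labelled KO adherent 2 was high. Nr4a1 stood at 4.50 and 4.83 on the low pair, and at 7.96, 7.96 and 7.93 on the high trio, so 4.83 and 7.93 were the values nearest to the limit from below and from above. The Cbx3-high arrays had 7.43, 7.79 and 8.01. Because the same arrays made the split, no test was run between its sides, and every difference below is a description of these 8 arrays. The labels do not say if a floating and an adherent sample came from the same embryo.

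Immediate early genes are switched on within minutes by signals such as growth factors, without new protein synthesis. Receptors for EGF and FGF act through the MAP kinases on the serum response factor and its partners, which bind CArG boxes, while cyclic AMP and calcium act through CREB on cAMP response elements. Many of the products are transcription factors of the FOS, JUN and EGR families, many of their mRNAs are short-lived, and phosphatases, Sprouty proteins and RNA-destabilising proteins among them end the response.

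To show the regulatory sequence of genes that were lower together, the 250 bases before 1 annotated start site of 4 counted immediate early genes follow, each 5′ to 3′ on the strand of its gene. They are from RefSeq, build GRCm38.p6: Egr2 at chr10:67537316-67537565 on the plus strand, Srf at chr17:46556163-46556412, Btg2 at chr1:134079156-134079405 and Klf4 at chr4:55532476-55532725, the last 3 on the minus strand. Capitals mark CArG boxes (in Egr2 and Srf), the cAMP response element TGACGTCA (in Btg2) and EGR sites, GCGNGGGCG, on either strand (in Srf, Btg2 and Klf4).
Egr2: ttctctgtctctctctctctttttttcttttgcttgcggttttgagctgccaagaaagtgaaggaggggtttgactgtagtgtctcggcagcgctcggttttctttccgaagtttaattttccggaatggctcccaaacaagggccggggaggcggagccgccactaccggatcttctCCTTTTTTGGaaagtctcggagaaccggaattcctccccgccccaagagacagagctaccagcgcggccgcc
Srf: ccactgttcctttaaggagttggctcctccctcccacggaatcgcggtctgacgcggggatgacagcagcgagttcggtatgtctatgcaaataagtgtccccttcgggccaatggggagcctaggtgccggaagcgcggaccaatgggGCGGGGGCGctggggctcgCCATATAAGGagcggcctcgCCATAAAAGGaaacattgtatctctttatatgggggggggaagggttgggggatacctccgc
Btg2: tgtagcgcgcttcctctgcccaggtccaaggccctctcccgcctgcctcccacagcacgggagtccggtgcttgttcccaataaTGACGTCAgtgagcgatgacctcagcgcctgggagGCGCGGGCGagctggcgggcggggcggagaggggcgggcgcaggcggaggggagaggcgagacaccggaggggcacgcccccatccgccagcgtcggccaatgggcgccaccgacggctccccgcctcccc
Klf4: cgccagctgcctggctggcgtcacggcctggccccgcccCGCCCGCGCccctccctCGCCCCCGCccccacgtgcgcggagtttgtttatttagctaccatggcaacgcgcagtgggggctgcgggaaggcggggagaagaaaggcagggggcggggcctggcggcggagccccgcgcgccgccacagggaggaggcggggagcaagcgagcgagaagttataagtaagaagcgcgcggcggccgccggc
The Egr2 and Srf windows were chosen for their CArG boxes, the Btg2 window for its cAMP response element and the Klf4 window for its 2 EGR sites. A match is a description of letters, not evidence of binding. RefSeq windows of 300 bases, which also hold the 50 bases after the start, were found for 20 of the 26 immediate early genes counted as lower. An EGR site on either strand lay in at least 1 window of 9 of these 20 genes (45.0%), against 6.27% of all 27025 genes with a window. The 20 genes had 29 windows and all genes had 32851. The shares were not matched for the number of windows or for base composition. A cAMP response element was found in 2 of the 20 (10.0%, against 2.03%), and a CArG box in 2 (10.0%, against 1.81%). The AP-1 site TGANTCA was found in 1 (5.00%, against 8.97%). The 4 patterns were searched on both strands, and none contains another.

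The sides differed in a few measures of the arrays themselves. All 8 arrays lay on 1 slide, and the low pair sat side by side in its first row. The 75th percentile of processed intensity, which was divided out, was 856 and 865 on the low pair against 616 to 699 on the high trio and 632 to 739 on the Cbx3-high arrays. The share of spots well above background overlapped between the sides, at 47.5% to 55.4% on the pair and 50.6% to 55.0% on the trio. The array labelled KO floating 3 had a dim zone: 139 probes there were more than 3 (log2) under all 7 other arrays, all in rows 1 to 148 of 384 and columns 1 to 25 of 164, while the other arrays had 0 to 5 such probes. The rectangle of those rows and columns holds 5.92% of probes, and genes in it are named as such below. Xist was at 2.20 and 1.71 on the pair and 1.91, -6.27 and 1.98 on the trio. The Y-linked gene Ddx3y was at 2.16 on KO floating 3 and at -6.98 to -6.09 on the other 4 Cbx3-low arrays. So 1 array of the trio differs from the other Cbx3-low arrays in its sex-linked genes. Among the Cbx3-high arrays, WT floating 1 had the same pattern, with Xist at -6.27 and Ddx3y at 2.28. The neurosphere markers Sox2 (3.35 to 3.92 over the 8 arrays) and Nes (4.03 to 5.34) were present on all arrays.

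**Figure D1:**
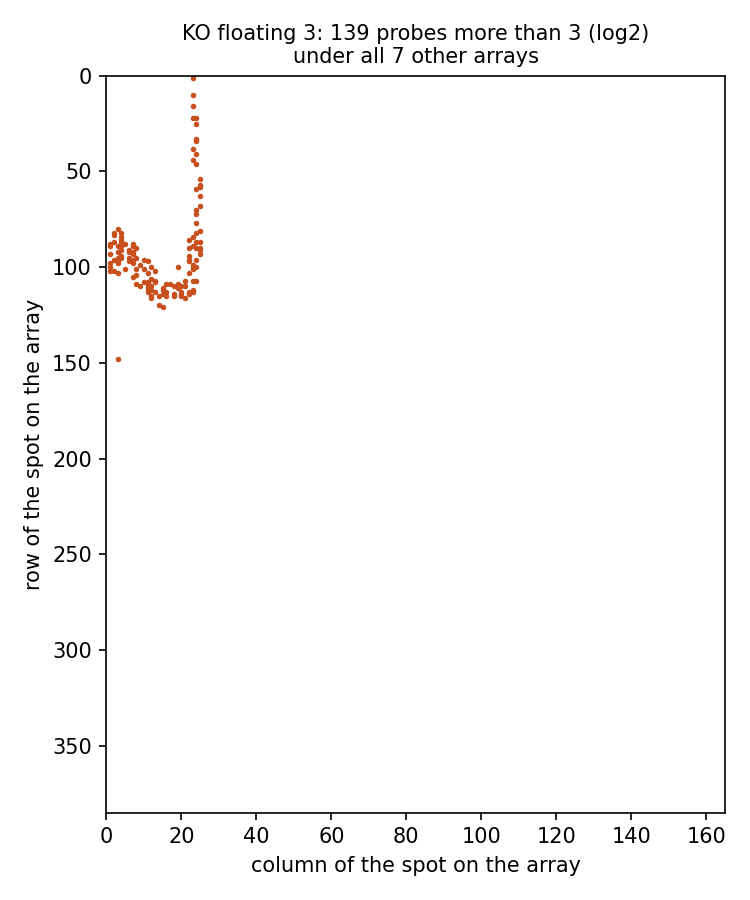
Position on the array labelled KO floating 3 of the 139 probes with a signal more than 3 (log2) under that of all 7 other arrays, by spot column and spot row; each point is a probe. The points trace a curved line in 1 corner, within rows 1 to 148 and columns 1 to 25.

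A feature was counted as lower or higher in the low pair where its mean differed by at least 2-fold from that of the high trio and no array of one side reached the other. Of 25540 features, 13923 of them with a gene symbol, 1953 were counted as lower (7.65%) and 504 as higher (1.97%). These 2 shares are the background for each gene group set against the trio below. After quantile normalization the split was 1508 lower and 746 higher, and the median difference of all features moved from -0.11 to -0.0052. List medians moved by unequal amounts under that setting. Over all features 59.0% lay below in the pair.

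Immediate early transcription factors and their companions were lower in the low pair almost throughout. Of 32 genes listed, 30 were measured, 26 were counted as lower and 0 as higher, with a median difference of -2.31 against -0.11 over all features. The group had been found lower here before the list was drawn up, so its count is no independent support for its direction. Arc, a neuronal activity gene whose protein acts at synapses, was the farthest apart. Its relative signal was -0.89 and -2.0 on the low pair and 4.81, 4.74 and 4.79 on the high trio, and the means were 75-fold apart (-1.44 ± 0.79, SD, n = 2, and 4.78 ± 0.036, n = 3). The 3 Cbx3-high arrays, at 4.76, 4.92 and 5.73, lay with the trio.

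The FOS and JUN proteins pair to form the AP-1 factor. Fos was at 2.84 and 3.54 on the pair and 6.78, 6.68 and 6.79 on the trio. Fosb had -0.46 and -0.24 against 4.12, 4.12 and 4.20, 22.6-fold lower. Its probe lies in the rectangle of the dim zone, but its KO floating 3 value equals that of KO floating 1. Junb stood at -4.05 and -3.60 against 0.43, 0.55 and 0.22, 18.7-fold lower. Jun itself was closer, at 5.55 and 5.56 against 7.08, 7.02 and 7.03. For all 4 the arrays of a side lay closer to each other than to the other side, and the Cbx3-high arrays lay above the pair. Jund, the family member known for steady expression, was not counted, with a difference of -0.56. Fosl2 was counted with -1.10, and Fosl1 was not measured. Atf3, a stress-induced partner of JUN, stood at -2.03 and -2.42 on the pair against 1.97, 1.80 and 1.77, 16.8-fold lower.

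All 4 EGR zinc finger genes were counted as lower. Egr4 had 0.27 and 0.73 on the pair and 5.19, 5.18 and 5.87 on the trio, 30.1-fold lower. Egr2, of which the window printed above, from 1 of its annotated start sites, holds a CArG box, had 2.45 and 1.57 against 5.95, 5.96 and 6.00. Egr1 had 5.25 and 4.96 against 7.60, 7.52 and 7.48. The pair thus kept an Egr1 signal well over the 75th percentile, and the sides were 5.4-fold apart. Egr3 was dim: it was not well above background on the pair, so its difference of -1.76 is not a measured size. Nab2, a corepressor of EGR proteins, was not counted and was 0.21 above the trio on average.

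Further members were counted with differences of -3.32 to -1.02. Klf2, a Krüppel-like factor, had -0.13 and -1.08 on the pair and 3.13, 2.52 and 2.50 on the trio. Its relative Klf4 had 0.38 and 0.13 against 3.53, 3.68 and 3.44. Ier2, a nuclear regulator named for its early response, had -0.46 and -0.92 against 2.83, 2.43 and 2.52. These 3 genes were nearly equally far apart, with differences of -3.32, -3.30 and -3.28. Btg2, an antiproliferative gene, had 0.50 and 1.23 on the pair and 4.12, 3.89 and 4.13 on the trio. Nr4a2, the relative of Nr4a1, had -0.72 and -0.61 against 1.06, 1.03 and 1.23, and Nr4a3 was not measured. Srf, the gene of the serum response factor, had 2.93 and 2.86 against 4.06, 3.99 and 4.0. Myc had the smallest difference among the counted genes, -1.02, and its nearest arrays, at 0.56 and 0.75, came close. Ier3 spread widely within the pair, at 0.23 and -1.41. Ier5 (-0.48) and Klf10 (0.36) were not counted.

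**Figure D2:**
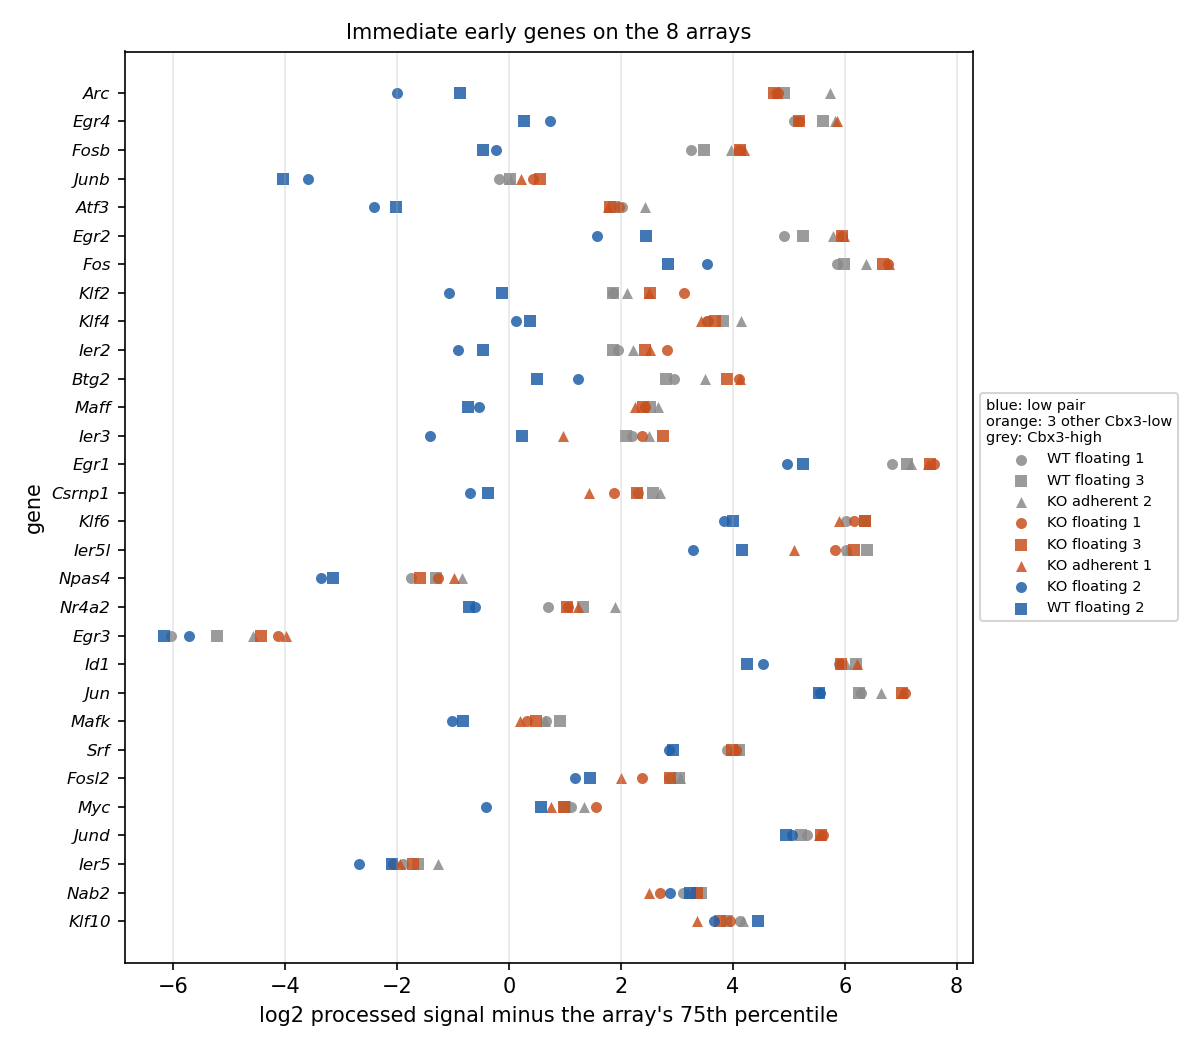
Relative signal (log2 processed signal minus the array's 75th percentile, x axis) of the 30 measured immediate early genes on the 8 arrays; blue points are the low pair, orange points the high trio and grey points the Cbx3-high arrays, and genes are ordered by the difference between pair and trio. For the 26 counted genes both blue points lie left of all 3 orange points; Jund, Ier5, Nab2 and Klf10 were not counted.

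The same comparison can be made inside each label, in 2 comparisons that share no array with each other. They are no independent support. Both number 2 arrays were chosen for a low Nr4a1 signal, while floating arrays 1 and 3 of both labels had 7.43 to 7.96. The comparison in the KO-labelled arrays is also a part of the main one. KO floating 2 was set against KO floating 1 and 3, and the array labelled WT floating 2 against WT floating 1 and 3, where the Cbx3 signal also differs. In the KO-labelled arrays 2861 features were counted as lower (11.2%) and 1110 as higher (4.35%), and in the WT-labelled arrays 2740 as lower (10.7%) and 3233 as higher (12.7%). The lower sets shared 1314 features, 45.9% of the KO set and 48.0% of the WT set. The higher sets shared 748, 67.4% of the KO set and 23.1% of the WT set, and 265 features were counted in opposite directions. Of the 30 immediate early genes, 26 were counted as lower in the KO-labelled arrays and 23 in the WT-labelled ones, with median differences of -2.66 and -1.95. Arc, for example, was at -2.0 on KO floating 2 against 4.81 and 4.74 on KO floating 1 and 3. On the array labelled WT floating 2 it was at -0.89, against 4.76 and 4.92 on WT floating 1 and 3.

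**Figure D3:**
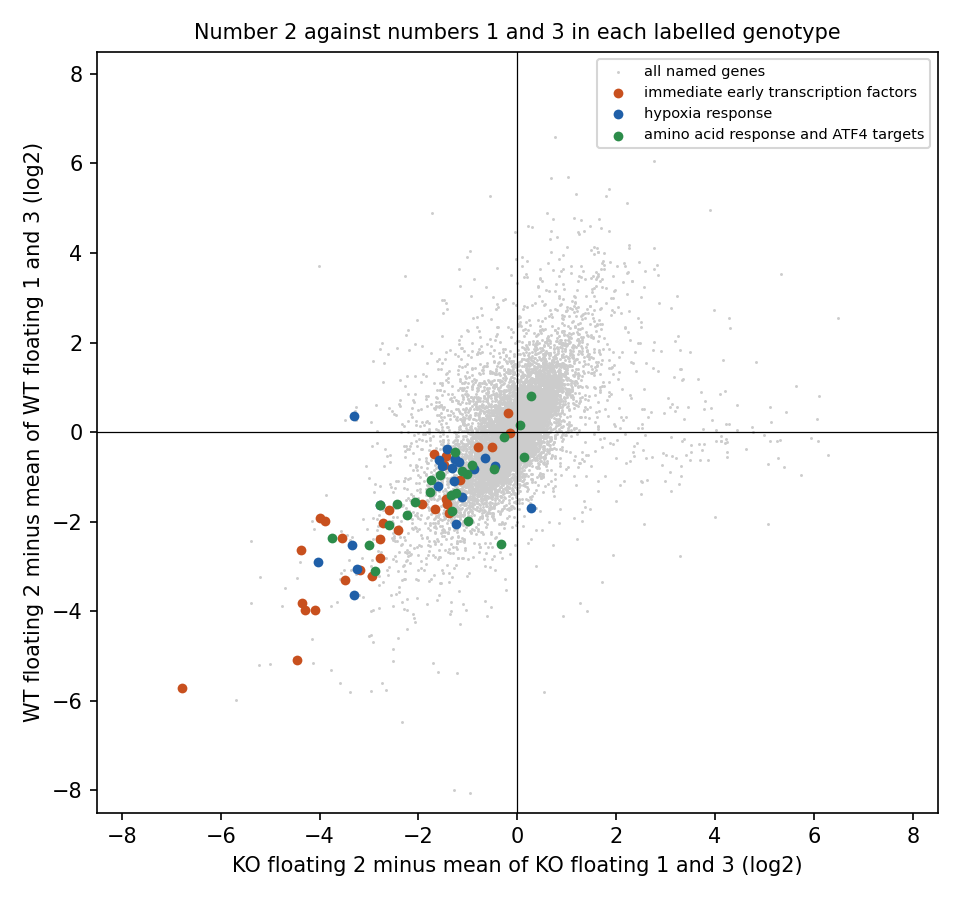
Difference of KO floating 2 from the mean of KO floating 1 and 3 (x axis, log2) against that of the array labelled WT floating 2 from the mean of WT floating 1 and 3 (y axis, log2), 1 point a named gene, with 3 gene groups in colour. Most coloured points lie below 0 on both axes, with list medians on the x and y axes of -2.66 and -1.95 for immediate early genes, -1.33 and -0.81 for hypoxia genes and -1.32 and -1.35 for amino acid response genes.

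MAP kinase feedback genes were lower in part. Of 19 measured, 6 were counted as lower and 1 as higher, with a median difference of -0.69. The phosphatases that switch off MAP kinases led: Dusp1 had 1.17 and 1.53 on the pair and 3.43, 3.24 and 3.54 on the trio, and Dusp6 had 4.45 and 3.66 against 6.31, 6.05 and 5.67. Dusp5 had -4.06 and -4.16 against -1.95, -1.58 and -1.73, with 1 array of the pair well above background. Spry2, a Sprouty inhibitor of receptor signalling, stood at -0.61 and 0.16 against 1.41, 1.69 and 1.46. The ETS factors downstream of FGF did not follow: Etv5 differed by 0.07, Etv1 by 0.18 and Etv4 by 0.86. Il17rd, an inhibitor of FGF signalling also called Sef, was counted as higher, at 1.90 and 2.54 against 1.04, -0.07 and 1.58.

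The receptors, kinases and factors upstream were mostly alike between the sides. Of 24 measured, 1 was counted as lower and 0 as higher, and the median difference was -0.16. Egfr, the receptor of the EGF in the medium, was at 5.70 and 6.02 on the pair and 5.48, 5.20 and 5.60 on the trio. Fgfr1 was at 5.65 and 5.49 against 5.96, 6.35 and 6.01. Mapk3, a MAP kinase, had 2.77 and 2.76 against 3.30, 3.67 and 3.30, a difference of -0.66 under the 2-fold limit. The counted gene was Mef2d, a transcription factor of muscle and neurons, at -3.98 and -4.77 against -0.79, -1.71 and -2.24, with only 1 array of the pair well above background. These are mRNA signals and say nothing of phosphorylation.

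Early secreted and signalling genes were lower in the low pair, with 17 of 27 measured genes counted as lower, 0 as higher and a median difference of -1.60. For 3 of the 17 neither array of the pair was well above background. The matricellular proteins Ccn1 and Ccn2 are secreted regulators of adhesion. Ccn1 had -0.10 and 0.33 on the pair and 4.66, 4.32 and 4.31 on the trio, 19.9-fold lower, with 4.54, 4.51 and 4.93 on the Cbx3-high arrays. Ccn2 had -2.89 and -4.82 against 0.52, 1.22 and -0.60, with 1 array of the pair well above background. The Cbx3-high arrays were higher still for Ccn2, at 3.02, 3.15 and 2.49.

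Several members of this list encode chemokines, which attract leukocytes. Ccl2 had -3.17 and -3.74 on the pair and 1.03, 0.99 and 0.48 on the trio, 19.6-fold lower, though only 1 array of the pair was well above background. Ccl7, a related chemokine, was not well above background on the pair and was at -0.44, -0.58 and -0.96 on the trio, at least 13.7-fold higher there. Where a gene was below background on a whole side, its fold is such a bound, taken on each dim array against its lowest well-above-background signal, or against the probe itself where that is brighter. Cxcl1 had -4.35 and -3.10 against -0.11, 1.06 and 0.29. Here the Cbx3-high arrays scattered from -3.98 to -0.72, so 1 of them lay among the pair. Cxcl10, an interferon-responsive chemokine, had -3.41 and -2.15 against 0.59, 0.96 and 1.23.

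Zfp36 and Socs3 were among the 12 genes with the largest differences. Zfp36, which encodes the mRNA-destabilising protein tristetraprolin, had -2.62 and -3.30 on the pair and 1.92, 2.28 and 1.39 on the trio, 28.3-fold lower. Socs3, an inhibitor of JAK and STAT signalling, had -0.92 and -0.45 against 4.61, 4.50 and 3.26, 28-fold lower. Tnfaip3, an inhibitor of NF-kappaB signalling, had -1.51 and -2.18 against 0.70, 0.74 and 0.39. In each of these 3 genes the Cbx3-high arrays lay above the pair.

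Microglia, the macrophages of the brain, also make chemokines, and some of their defining markers were detected. Of 17 genes on that list, 7 were measured, 6 of them with a mean below that of the trio and 0 counted, with a median of -0.50. Csf1r, the receptor these cells need to survive, had 0.11 and 0.16 on the pair and 0.85, 1.21 and 0.82 on the trio. By contrast, Aif1, C1qa, C1qc, Ctss, Cx3cr1, Ptprc and Tyrobp were not well above background on any of the 5 arrays. The level summed over the list, in multiples of the array's 75th percentile, was 23.1 to 23.7 on the pair and 29.4 to 36.3 on the trio, and a bright member was Itgam (3.78 and 3.89 against 4.37, 4.18 and 4.67). The part of such cells in the chemokine differences was not tested. In bulk samples such as these, fewer cells of a type and less RNA per cell cannot be told apart.

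Genes known to respond to cyclic AMP were lower in part, 8 of 18 measured, with a median difference of -0.69. Sik1, a kinase that restrains CREB coactivators, had -2.93 and -3.50 on the pair and -0.11, 0.65 and -0.94 on the trio. Its probe lies in the rectangle of the dim zone, where KO floating 3 was nevertheless the brightest of the 5. Nfil3, a transcriptional repressor, had 0.44 and 0.55 against 3.20, 3.82 and 2.84, and Gadd45b, a stress-response gene, had -0.38 and -0.16 against 2.53, 2.42 and 2.45. Neither gene had an array of one side near the other.

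Genes of the amino acid response, which are switched on by the factor ATF4 when amino acids run short, were lower in the low pair in 15 of 25 measured cases. The median difference was -1.18 and 0 genes were counted as higher. Trib3, a pseudokinase that feeds back on ATF4, had 1.16 and 0.47 on the pair and 3.57, 4.88 and 3.96 on the trio. Chac1, which degrades glutathione, had -0.02 and -0.16 against 2.58, 3.09 and 3.12. Ddit3, the gene of the CHOP factor, had 1.03 and 0.88 against 2.90, 3.30 and 2.72. Slc7a5 and Slc3a2 encode the 2 chains of an amino acid transporter, and both were counted. Slc7a5 had 1.83 and 1.61 against 2.98, 3.39 and 2.92, and Slc3a2 had 4.93 and 4.92 against 6.19, 6.33 and 5.96. Asns, asparagine synthetase, had 4.24 and 4.02 against 5.11, 5.57 and 5.26. Endoplasmic reticulum chaperones and related genes, of the neighbouring branch of the stress response, were mostly not counted, and the list median was -0.17. Of 18 genes 1 was counted as lower, namely the related gene Herpud1 (2.55 and 2.36 against 3.98, 4.30 and 4.09).

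Genes of the hypoxia response, targets of the HIF factors, were lower for every one of the 21 measured, 13 of them counted, with a median difference of -1.19. P4ha2, a collagen prolyl hydroxylase, had -0.69 and -2.01 on the pair and 1.65, 2.40 and 1.62 on the trio. Adm, which encodes the peptide adrenomedullin, had -0.30 and -0.37 against 2.71, 3.18 and 2.37, an 8.5-fold difference. Vegfa, the vascular growth factor, was at 4.60 and 4.28 against 5.66, 5.73 and 5.73, and Bnip3, a mitophagy receptor, at 7.14 and 6.98 against 8.29, 8.25 and 8.16. The Cbx3-high arrays lay above the pair for each of these 4 genes. Against those arrays the list median was -1.11.

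Glycolysis followed with 6 of 22 genes counted as lower and a median of -0.79, which was -0.45 after quantile normalization. The glucose transporter Slc2a1 had 3.72 and 3.52 on the pair and 5.55, 5.84 and 5.36 on the trio. Slc2a3, the transporter of neurons, had 1.24 and 0.52 against 3.46, 3.82 and 2.76. Pfkfb3, an enzyme that speeds up glycolysis, had 1.22 and 1.07 against 3.42, 4.34 and 3.31 and was the farthest apart of the list. Txnip, which is raised by glucose and limits its uptake, had 2.68 and 1.94 on the pair against 4.01, 3.97 and 3.75. It belongs to a list of glucose and starvation response genes of which 5 of 18 were counted as lower. Respiratory chain genes did not move with them: 0 of 21 were counted in either direction, and the median was -0.0090, or 0.15 after quantile normalization.

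Clock genes were counted as lower in 8 of 17 cases, with a median of -0.63. Ciart, a repressor of the clock, had -2.0 and -2.47 on the pair and 2.0, 1.87 and 1.53 on the trio, 16.4-fold lower. Per1, which is both a clock gene and a cyclic AMP target, had 4.0 and 3.95 against 5.33, 5.71 and 5.30, and Bhlhe40 had 1.87 and 1.70 against 3.88, 4.0 and 3.35. Targets of p53 were counted as lower in 6 of 18 cases, among them Cdkn1a, which encodes the cell cycle inhibitor p21 (3.72 and 3.21 against 5.03, 5.46 and 4.72), and the cell death gene Bbc3 (3.44 and 3.15 against 4.99, 5.02 and 4.62). Several smaller stress groups had few counted members. Heat shock genes had 3 of 17 as lower, led by Hspb1 (-1.75 and -1.23 against 0.90, 1.66 and 1.03), and NRF2 targets 2 of 18, Hmox1 and Osgin1. Lipid synthesis was mostly alike: 1 of 23 cholesterol genes, Insig1, and 0 of 14 fatty acid genes were counted.

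**Figure D4:**
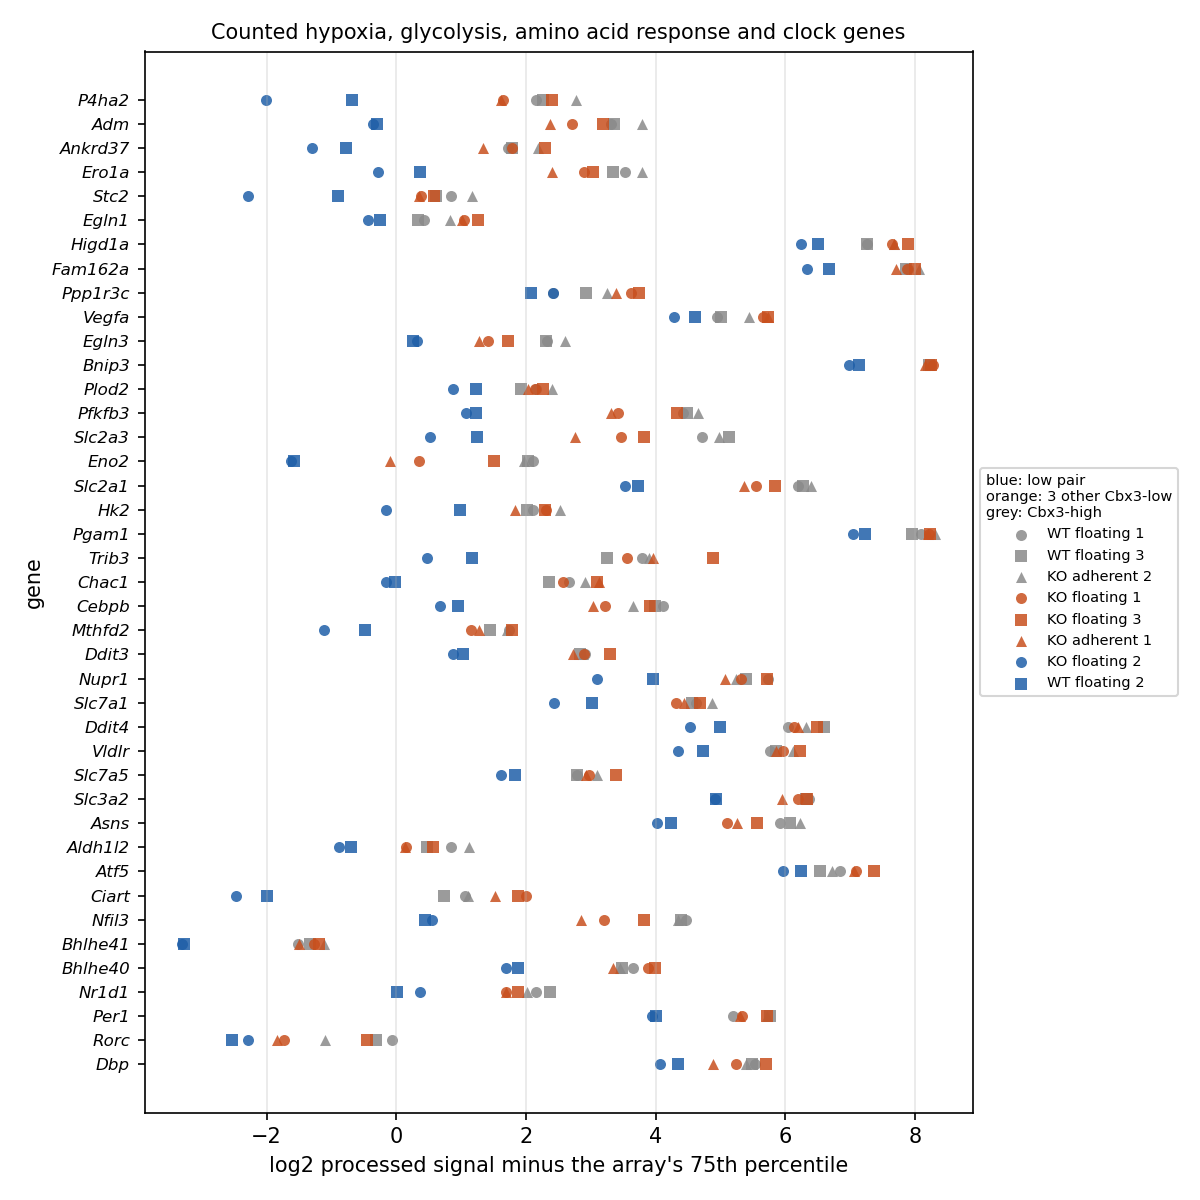
Relative signal (log2 processed signal minus the array's 75th percentile, x axis) on the 8 arrays of the counted members of the hypoxia, glycolysis, amino acid response and clock lists, in that order; blue points are the low pair, orange points the high trio and grey points the Cbx3-high arrays. Both blue points lie left of all orange points in each gene, by more than 2 (log2) between the nearest arrays for Adm and Ciart and by less than 1 for others such as Dbp.

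Cell cycle genes were on average higher in the pair, but few were counted. All 25 measured mitosis genes had a mean above that of the trio, with a median of 0.49, and 1 of them, Kif11, was counted, and the array medians of the list spread by 0.47 (SD within sides). The array labelled WT floating 2 carried most of the difference: Mki67, a proliferation marker, was at 3.96 there and at 2.84 on KO floating 2, against 2.93, 2.33 and 2.32 on the trio. Without that array, KO floating 2 against the trio had a list median of 0.049, and against KO floating 1 and 3 alone it was -0.091. Of 25 replication genes 3 were counted as higher, Mcm5 (1.47 and 0.48 against 0.24, -0.15 and -0.42), Tk1 and Cdc6. The median of that list was 0.41, and it was 0.13 without the array labelled WT floating 2 and -0.0036 for KO floating 2 against KO floating 1 and 3. Kif20a differed by 2.99 on average, but its KO floating 3 value was -6.05 against 1.36 and 0.51 on the other arrays of the trio. All 25 ribosomal protein genes lay below in the pair by a median of -0.30 and 0 were counted, and after quantile normalization the median turned to 0.061.

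Stem cell and lineage genes differed little between the sides. Of 24 neural stem and radial glia genes 1 was counted as lower and 1 as higher. Hes1, a repressor downstream of Notch that is also a quickly induced gene, had 1.78 and 1.46 on the pair and 3.05, 3.15 and 3.26 on the trio. Gli3, a factor of Hedgehog signalling, had 0.86 and 0.74 against -0.24, -0.90 and -0.19. Hes5, the other main Notch target here, overlapped between the sides at 7.80 and 8.27 against 8.06, 7.48 and 8.57. Among 14 measured BMP targets 4 were counted as lower: Id1 had 4.25 and 4.54 against 5.93, 5.93 and 6.22, Id3 had 3.78 and 4.03 against 5.01, 5.08 and 5.17, and Smad7 and Msx2 were the others.

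Neuronal genes were split. Syn1, a synaptic vesicle protein (0.05 and 0.26 against -0.96, -1.35 and -1.53), and Dcx, of migrating young neurons (-2.30 and -0.96 against -3.13, -2.69 and -2.62), were counted as higher, while Gad1, the GABA-making enzyme, and Celf4 were counted as lower. The list median was 0.034 over 19 measured genes, and it turned negative under other settings. Proneural factors had 0 of 8 counted. Astrocyte genes had 1 of 21, Id3, and a median of 0.26. In the oligodendrocyte lineage, of 16 measured genes, Mag, a myelin protein, was counted as lower (-4.06 and -4.55 against -2.16, -3.44 and -3.65) and 1 gene as higher. The level summed over that list was 213 to 219 on the pair, 157 to 160 on the trio and 73.6 to 101 on the Cbx3-high arrays, with Olig1 (7.18 and 7.26 against 6.61, 6.80 and 6.6) its brightest gene. The list median was -0.037 and turned positive after quantile normalization, while the sum is weighted to its bright members. The part of such cells in the gene groups above was not tested. Summed levels of endothelial genes (22.3 to 23.0 against 22.7 to 23.3) and of meningeal genes (4.67 to 6.00 against 4.89 to 5.80) overlapped between the sides, and 6 genes of each list, Cdh5, Cldn5, Dcn and Lum among them, were not well above background on any of the 5 arrays. Of 7 measured meningeal genes, the collagens Col1a1 (-1.04) and Col1a2 (-1.15) were counted as lower, each well above background on 1 array of the pair. Of 10 measured endothelial and mural genes 1 was counted as lower, Acta2, the smooth muscle actin, which was at least 2.9-fold higher on the trio. Ependymal genes summed to 26.6 to 27.3 on the pair against 35.6 to 41.8 on the trio, but 0 of 11 measured genes were counted. That sum is weighted to Mcidas, the brightest of the list, at 4.24 and 4.34 against 4.80, 4.70 and 5.13. Dnah5, Dnah9, Dnah11, Spag6l and Tmem212 were not well above background on any of the 5 arrays.

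Clustered protocadherins, cell adhesion proteins that give neurons their identity, were above the trio in 24 of 28 measured genes, with a median of 0.51 and 4 counted as higher. Pcdhb3 had 2.42 and 2.40 on the pair and 1.54, 0.56 and 1.55 on the trio, and Pcdhb11 had -0.85 and -0.03 against -1.69, -2.70 and -1.23. Both were lower again on the Cbx3-high arrays, at -1.69 to -2.55 and -2.83 to -4.69. The list median against those arrays was 1.58. The family members share near-identical stretches, so a probe may read more than 1 of them. The other HP1 genes, Cbx5 (2.07 and 2.09 against 1.42, 1.48 and 1.46) and Cbx1 (-0.65 and -0.84 against -1.01, -1.24 and -0.93), differed by 0.63 and 0.32 and were not counted.

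**Figure D5:**
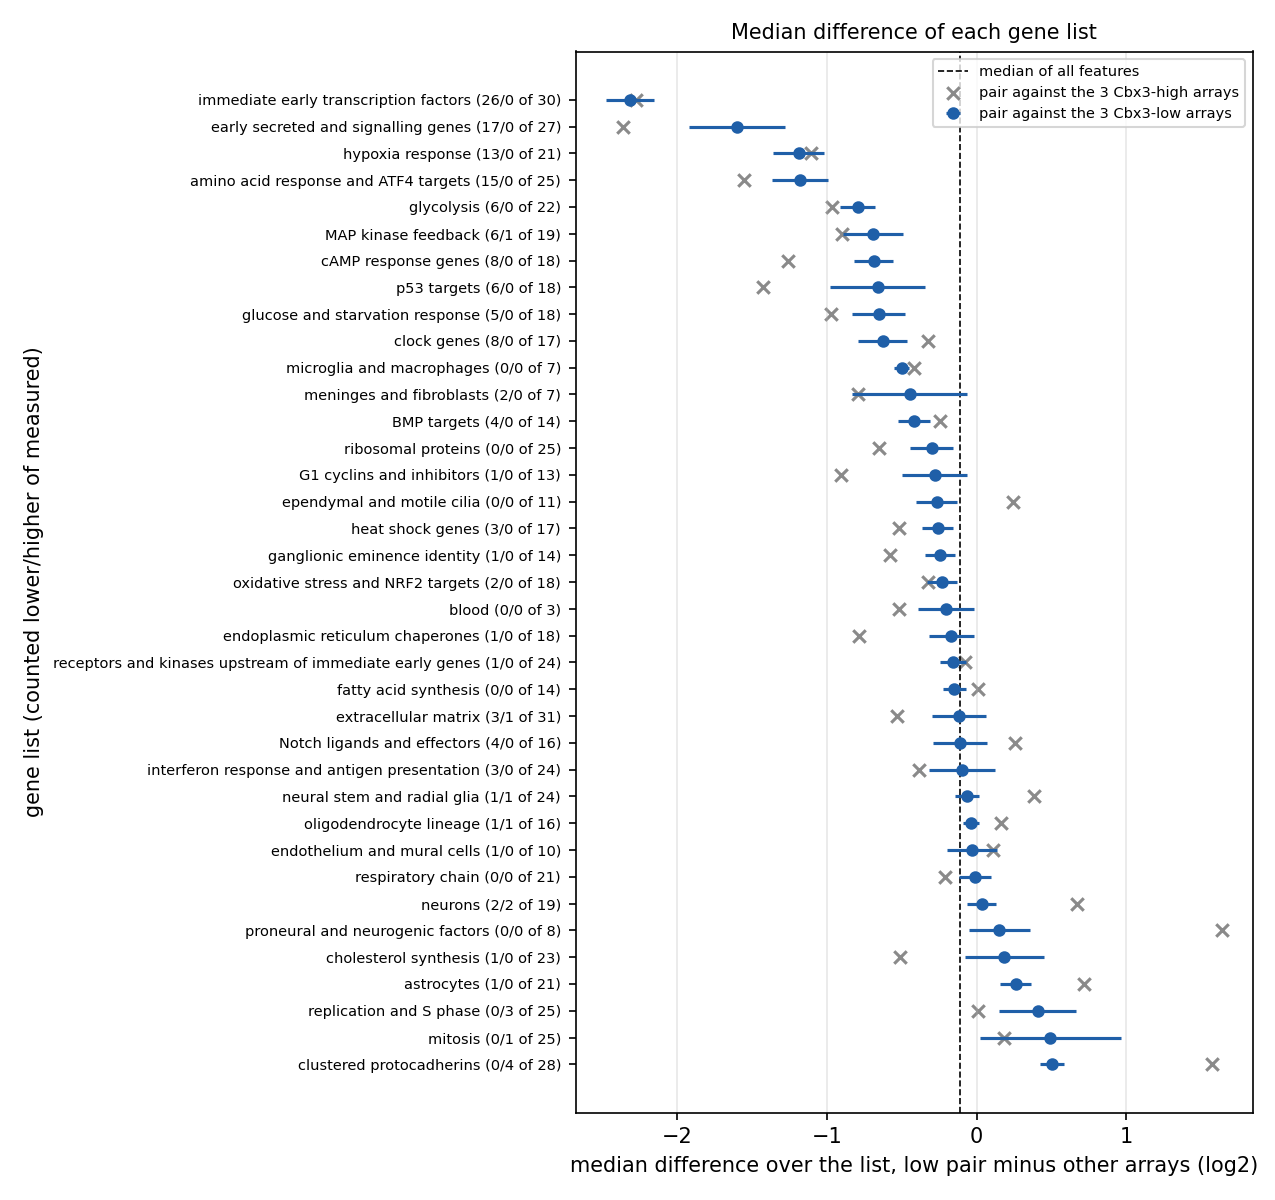
Median difference (log2) of each gene list with at least 3 measured members between the low pair and the high trio (blue points, with the SD of the array medians within sides as bars) and between the low pair and the Cbx3-high arrays (grey crosses); the dashed line is the median of all features, -0.11, and the numbers give the members counted as lower and higher of those measured. Among the blue points of the lists drawn, immediate early genes are farthest to the left at -2.31 and protocadherins farthest to the right at 0.51. Among the grey crosses, early secreted and signalling genes are farthest to the left at -2.36 and proneural factors farthest to the right at 1.64.

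The genes with the widest difference in the other direction came mostly from the dim zone. Of the 12 named genes with the largest higher differences, 9 lie in it: Pabpn1, Adgrb1, Rfng, Pcx, Pomgnt1, Bad, Pheta1, Kiz and Csnk1g3. Pabpn1, for example, was at 5.54 and 5.56 on the pair and at 5.14, -6.13 and 5.13 on the trio, so the low value was that of KO floating 3. In these 9 genes the nearest arrays of the 2 sides were 0.02 to 0.40 apart. The other 3 were Slfnl1, Mefv and B3gnt7, which were not well above background on the trio. Slfnl1 had -2.92 and -3.26 on the pair and was at least 2.5-fold higher there.

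Outside the rectangle of the dim zone, in genes chosen after their values were seen, the pair was higher mostly in dim genes. Hoxa6, a homeobox gene, had -1.18 and -2.82 on the pair and was at least 5.4-fold higher than on the trio, where it was not well above background. Rims4, of the presynaptic zone, had -3.21 and -1.69 and was at least 3.9-fold higher. Among genes measured on all 5 arrays, Traf3ip3 had -1.57 and -1.14 against -2.96, -3.85 and -2.99, and Nap1l3 had -1.67 and -1.90 against -3.04, -3.25 and -3.52. Of the 504 features counted as higher, 107 had their nearest arrays at least 2-fold apart and 76 lay in the rectangle. Of the 1953 counted as lower, 726 had their nearest arrays at least 2-fold apart and 111 lay in the rectangle.

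The share counted as lower varied with the kind of feature. Probes for intergenic noncoding regions, named on the array by a genome interval, were counted as lower in 696 of 5826 cases (11.9%), protein-coding genes in 648 of 13510 (4.80%). Of all 1953, 525 were not well above background on either array of the pair, so they passed the filter through the trio alone. They were not split by kind, and the part of such dim probes in the difference between kinds was not tested. With probes detected on all 5 arrays, 966 of 20555 features were counted as lower. Protein-coding genes counted as lower spanned a median of 15.5 kb, against 22.5 kb over all measured protein-coding genes and 32.7 kb over those counted as higher. The 36 that were at least 8-fold lower spanned a median of 4.07 kb, and 75% of them were under 10 kb, against 26.5% of all. Many immediate early genes are known to be short.

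Against the 3 Cbx3-high arrays, which the split of the Cbx3-low arrays did not use, the low pair was lower in several of the groups above and differed in further ones. By the same count 2736 of 25540 features were lower and 2760 higher, against 1953 and 504 in the comparison with the trio. These larger counts are the background for the groups of this paragraph. The Cbx3 signal differs as well in this comparison, which shares the pair with the one above. Of the 30 immediate early genes 24 were counted as lower there, with a median of -2.28, and of the amino acid response genes 16 of 25, with a median of -1.56. Groups that had few or 0 counted genes against the trio were counted more often here, and so were features in general, above all as higher. Proneural factors were counted as higher in 5 of 8 cases (median 1.64) and neuronal genes in 8 of 19. Astrocyte genes were counted as higher in 8 of 21 and neural stem genes in 8 of 24. Endoplasmic reticulum chaperones and related genes were counted as lower in 5 of 18 cases (median -0.78). The difference between the 2 comparisons was not tested. For Fos the Cbx3-high arrays had 5.86, 5.98 and 6.37, for Junb -0.18, 0.01 and 0.01, and for Egr1 6.85, 7.12 and 7.18. In these 3 genes they lay between the pair and the trio. For Ccn2, Nfil3, Slc2a3 and Cdkn1a they lay above the trio, Cdkn1a at 5.91, 5.94 and 6.10. Cell cycle genes did not follow: the median of the mitosis list against these arrays was 0.19.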

How the data were processed

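Gene expression was measured on 8 single-colour Agilent arrays. The deposited scanner files hold spot intensity on a linear scale, made by Feature Extraction 11.0.1.1 per the file headers (9.1.3.1 in the submitters' processing notes). Of 55681 probe values in the authors' deposited value table, 99.2% agreed to 0.01% with the processed intensity in a comparison on WT floating 1. For that array the table is thus linear and not normalized further. The comparison was made on that array only. No further step by the authors is recorded in the labels.

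Values are log2 of the deposited processed intensity minus the 75th percentile that this array had over its non-control spots. Outlier spots were left out, repeated spots were averaged, and 200 probes had no value on at least 1 array. Probes well above background on at least 2 of the 5 Cbx3-low arrays were kept, and the probe with the highest mean over the 8 arrays stood for a gene. Accessions matched a gene of the RefSeq table (GRCm38.p6) for 27235 probes. The number of arrays limits the precision.

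The Cbx3 and Nr4a1 signal made the sides, so no test was run. The sides, the members and the 39 gene lists were chosen with earlier results of these data known. Named genes are the 12 with the largest difference in each direction, if above background on all arrays of the brighter side and not clone or predicted names, and up to 4 counted members a list (2 of the brightest where none was counted). Further members are given as list members. The counting script was checked on simulated data with known differences. Other settings were normexp background correction (limma 3.58.1 in R 4.3.3, offset 50, on median signal), quantile normalization, centring on detected probes, the authors' table, other probe filters, other fold limits, leaving out each array, the first slide row, and the Cbx3-high arrays in place of the trio. Leaving out the dim zone, asking for 2-fold between the nearest arrays, and the genes chosen by these were added after the data were seen. Some items are not reported here.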

Additional observations from a re-analysis of the deposited data

How the results depend on the processing

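The 1953 features counted as lower became 898 after normexp, 966 with probes detected on all 5 arrays, 2935 with no filter, 1197 with probes detected on the Cbx3-high arrays, 4146 at 1.5-fold, 678 at 3-fold and 726 with 2-fold between the nearest arrays. The 504 counted as higher became 190, 231, 1196, 192, 1632, 169 and 107 under these settings, in that order, and 2760 against the Cbx3-high arrays. Without 1 array at a time the lower count ran from 1754 to 2727 and the higher count from 293 (without KO floating 3) to 843 (without the array labelled WT floating 2). The higher count was also 761 without KO floating 2 and 768 without KO adherent 1. The cause of these moves was not tested, except that fewer or more features can count under a stricter or looser limit. The median of the immediate early list stayed between -2.49 (without the array labelled WT floating 2) and -2.06 (without KO floating 2) under every setting tried.

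Medians of lists near 0 changed sign. Cholesterol synthesis was at -0.51 and ependymal genes at 0.24 against the Cbx3-high arrays. Ribosomal protein genes were at 0.061 after quantile normalization, and proneural factors at -0.045 with no filter. Neurons were at -0.051 after normexp, -0.048 with probes detected on the Cbx3-high arrays and from -0.083 to 0.052 without 1 array (KO floating 2 and the array labelled WT floating 2). The oligodendrocyte list was at 0.013 after quantile normalization, 0.014 with probes detected on all 5 arrays, from -0.090 to 0.059 without 1 array (the array labelled WT floating 2 and KO floating 1) and 0.17 against the Cbx3-high arrays. No paired analysis was possible because the results come from no test. Dim genes, with a signal near background, have a size that the arrays bound but do not measure.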

Other observations

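Some groups of genes with few counted members complete the description. Interferon and antigen presentation genes had 3 of 24 measured members counted as lower in the low pair: Irf1, a transcription factor of the interferon response, had 1.84 and 1.70 on the pair against 3.43, 3.56 and 3.03 on the trio, and the antigen presentation genes Tap1 and H2-K1 differed by -1.40 and -1.25. The list median was -0.096, and 0.016 after quantile normalization. Extracellular matrix genes had 3 of 31 counted as lower and 1 as higher. Thbs1, the matrix protein thrombospondin, had -2.31 and -3.69 against -0.59, -1.11 and -1.39, Fn1, fibronectin, had 3.84 and 2.70 against 4.64, 4.73 and 4.29, and Tnr, tenascin-R, was the higher one at -1.74 and -1.83 against -2.85, -2.82 and -3.02. Timp1, a protease inhibitor, was counted as lower at -0.14 and -0.25 against 0.67, 2.24 and 0.17, and stood far higher on the Cbx3-high arrays, at 4.91, 5.12 and 4.49.

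Notch ligands and effectors had 4 of 16 members counted as lower, with a list median of -0.11. Jag2, a ligand, had -4.51 and -6.28 against -2.55, -1.70 and -2.50, and 1 array of the pair was well above background. Nrarp, a feedback inhibitor, had 0.10 and 0.68 against 1.05, 1.17 and 2.15, and here the Cbx3-high arrays, at -0.70, -0.17 and 0.61, lay with or under the pair. Of 14 measured genes of ganglionic eminence identity 1 was counted as lower, Foxp1, a factor of striatal neurons. Foxp1 stood at 0.62 and 1.66 against 2.28, 2.22 and 2.12. The list median was -0.24. Its summed level was 41.7 to 50.8 on the pair, 54.3 to 60.5 on the trio and 57.7 to 72.7 on the Cbx3-high arrays. Dlx5, Gsx2, Isl1 and Nkx2-1, which mark parts of the ganglionic eminence, were not well above background on any of the 5 arrays. G1 cyclins and inhibitors had 1 of 13 counted, Cdkn1a, and of 12 blood genes 3 were measured and 0 counted.

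Over 22270 probes, those well above background on all arrays of the series, the pair were more alike than either was to the trio. The correlation of their signals was 0.993, against 0.964 to 0.985 with the arrays of the trio. Such likeness was not particular to the pair. Within the trio the correlation was 0.985 to 0.994, and among the Cbx3-high arrays it was 0.992 to 0.993. The lowest values between pair and trio, 0.964 and 0.970, were those of KO floating 3. Probes not well above background on that array, such as that of Pabpn1 in the dim zone, were not among the 22270. The part of the dim zone in these values was not tested. These arrays share a slide and the probes are not independent replicates, and the pair was chosen for a shared low signal.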
